A study of Mus musculus with 6 samples.

Results

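Claudins are membrane proteins of the tight junction that set how leaky an epithelium is to ions and water between its cells, and along the nephron each segment carries its own mixture of them. The 8 described here, Cldn1 to Cldn8, were chosen by name as claudins that mark cells outside the thick ascending limb, and all 8 of 8 were found among the 11578 genes of the deposited table. Polyadenylated RNA was sequenced from 3 mouse kidneys labelled as SRM deletion mutants (328, 336 and 342) and from 3 kidneys labelled Sall1 wild type (330, 331 and 337), all fresh and harvested at E17, embryonic day 17, by the growth notes, or at E17.5 by the extraction notes. The SRM is a short repression motif by which Sall1, a zinc finger transcription factor, recruits NuRD, a complex that remodels chromatin. The comparison asks how kidney gene expression depends on that interaction. Whether the deletion was on 1 or both alleles, and the strain, sex and litters of the embryos, are not stated in the labels, and so a p-value here reflects only how much these 6 samples vary.

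In the kidney, Cldn2 forms a cation and water channel in the leaky proximal tubule, while Cldn4 and Cldn8 act together in the collecting duct, where they take part in chloride passage between cells. Cldn3 and Cldn7 belong to the tight epithelia of the distal nephron and collecting duct as well. Cldn1 marks the parietal cells of Bowman's capsule, Cldn5 the endothelium and also podocytes, and Cldn6 is a claudin of immature epithelia. Because whole kidneys were used, fewer cells of a type and less RNA per cell cannot be told apart.

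The values are signal that the authors scaled, with totals from 555147910 to 559251769 per library, so totals do not give depth. The spacing of the values was regular in mutant 336 and wild types 331 and 337 (strength 0.561 to 0.866 on a scale on which 1 is perfect) and weak in the other 3 libraries (0.100 to 0.139). The first 3 were treated as a class of lower depth. All 10 listed genes of general tubular epithelium and all 7 podocyte genes were in the table, and 0 of 6 adrenal, 0 of 6 liver and 1 of 6 muscle genes were. Macrophage genes, 5 of 6 in the table, were each higher in every mutant than in every wild type, a pattern that 11.1% of all genes had. The summed signal of these macrophage genes was 72297 to 75976 in mutants and 37185 to 48104 in wild types. Their part in the claudin values was not tested. Of all genes, 33 passed the test used here, limma with Benjamini-Hochberg adjustment over the whole table at 0.05, and that number was 3095 without wild type 330 and between 2 and 17 without any other library.

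None of the 8 claudins passed over all genes in limma. This count of 0 stands beside 0.285% of all genes. At an unadjusted limma p under 0.05 there were 3 of 8, Cldn3 and Cldn4 higher and Cldn8 lower in mutants, where 19.0% of all genes had such a p, 10.5% higher and 8.51% lower. The 3 mutant values lay on 1 side of the 3 wild type values for 4 of 8, with Cldn1, Cldn4 and Cldn5 above and Cldn8 below, where 19.5% of all genes had that pattern, 11.1% above and 8.42% below. By the p-values in the authors' deposited table, 3 of 8 had a p under 0.05, namely Cldn1, Cldn4 and Cldn5, against 8.71% of all genes, and 0 passed after adjustment. The median log2 difference, mutant minus wild type, was 0.25 over the 8 claudins, with 7 positive and 1 negative, and 0.02 over all genes.

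**Figure D1:**
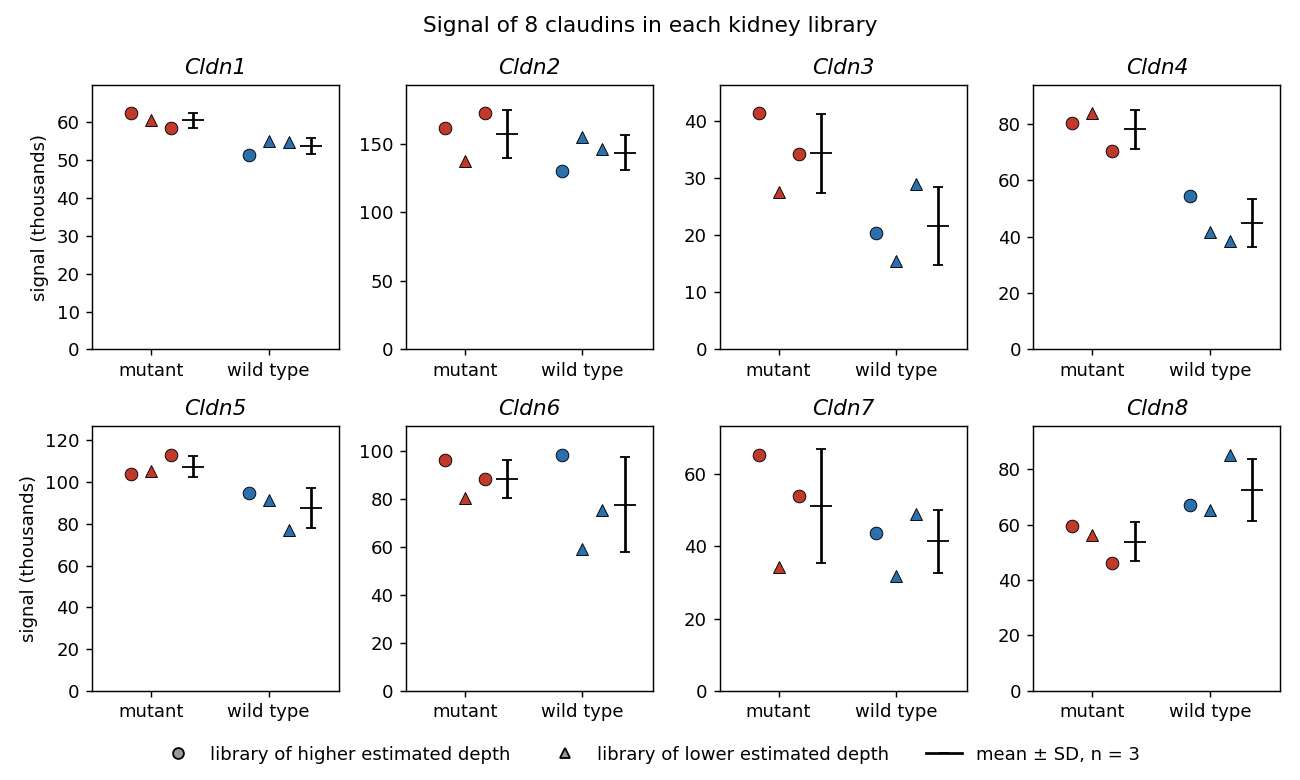
Signal of each claudin (vertical axes from 0, in units of 1000) in the 3 mutant and 3 wild type libraries, with 1 point per library, circles for higher and triangles for lower estimated depth, and bars for mean ± SD. For Cldn4 the mutants sit between 70427 and 83756, all above the wild types, and for Cldn8 between 46036 and 59507, all below them.

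Cldn4 had the lowest limma p of the 8. Its signal was 80216, 83756 and 70427 in mutants 328, 336 and 342, against 54555, 41486 and 38510 in wild types 330, 331 and 337. All mutants were higher than all wild types, and wild type 330 was the nearest to them. The mean was 78133 ± 6904 in mutants and 44850 ± 8535 in wild types (SD, n = 3 each), a log2 difference of 0.81 (SE 0.18, 95% interval 0.41 to 1.22), which ranked 70 among the 11578 limma p-values. That was short of the threshold (limma adjusted p = 0.149). Without wild type 330 the difference was 0.96 and passed (limma adjusted p = 0.00356), and without any other single library it did not, at 0.71 to 0.89. The fit without wild type 330 passed 3095 of the 11578 genes, so passing there does not single out Cldn4. Its wild types were 331 and 337, which stood apart by GC content as given below. Within the lower depth class, with mutant 336 as the lone mutant, the Cldn4 difference was 1.07, and within the higher class, with only wild type 330 on the other side, 0.46.

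Cldn3, which forms barriers to ion passage, lay higher in mutants on average but with overlap. Its signal was 41365, 27536 and 34281 in mutants 328, 336 and 342, against 20317, 15492 and 28954 in wild types 330, 331 and 337. Wild type 337 exceeded mutant 336. The mean was 34394 ± 6915 in mutants and 21588 ± 6820 in wild types (SD, n = 3 each), a difference of 0.70 on the log2 scale (SE 0.25, limma adjusted p = 0.238), and 0.89 and 0.38 within the higher and lower depth class. Cldn3 overlaps the span of Wbscr25 on the other strand, but the principal transcript of Cldn3 has no stretch of 50 bases in common with an annotated transcript of that gene.

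Cldn3 and Cldn4 are neighbours on chromosome 5, Cldn4 at 134945119 to 134946934 on the minus strand and Cldn3 at 134986214 to 134987472 on the plus strand (GENCODE M21, GRCm38, also called mm10). They are transcribed away from each other, with 39279 bases between them and no other annotated gene lying wholly in that gap. Genes that reach only partly into the gap were not counted. The 250 bases before each start are shown here to compare the upstream regions of this pair, from RefSeq on GRCm38.p6, at chr5:134946935-134947184 (minus strand) for Cldn4 and chr5:134985964-134986213 (plus strand) for Cldn3. Capitals mark the GC box, GGGCGG or its complement CCGCCC.
Cldn4: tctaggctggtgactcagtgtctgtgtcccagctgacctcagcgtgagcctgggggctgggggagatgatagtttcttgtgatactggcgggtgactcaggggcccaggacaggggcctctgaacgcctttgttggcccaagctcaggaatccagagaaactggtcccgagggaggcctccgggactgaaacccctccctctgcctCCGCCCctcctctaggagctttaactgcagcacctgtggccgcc
Cldn3: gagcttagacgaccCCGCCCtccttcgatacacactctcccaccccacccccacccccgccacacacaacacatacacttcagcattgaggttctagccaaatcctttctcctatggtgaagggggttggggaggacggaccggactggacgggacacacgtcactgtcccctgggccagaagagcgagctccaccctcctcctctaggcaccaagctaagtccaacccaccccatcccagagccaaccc
The GC box of Cldn4 begins at position -44 from the start and that of Cldn3 at position -236. A GC box on either strand stood in 32.7% of 32851 such windows over all RefSeq promoters, and in 6 of the 8 windows listed for 7 of the claudins, Cldn7 having 2 windows. Cldn4 also held the Snail E-box CAGGTG, read on the other strand, at position -14, a motif in 17.2% of all windows, and Cldn3 did not. The Grainyhead motif AACCNGTT, searched on both strands, was in 1.79% of all windows and in that of Cldn5 among the claudins, but in neither Cldn3 nor Cldn4. Such matches describe letters only. Grainyhead-like 2 (Grhl2), a transcription factor known to activate Cldn4 in mouse ureteric bud epithelium, stood at -0.17 on the log2 scale (SE 0.22, limma adjusted p = 0.657).

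Cldn8 was the only 1 of the 8 with a negative difference. Its signal was 59507, 56157 and 46036 in mutants 328, 336 and 342, against 67222, 65196 and 85341 in wild types 330, 331 and 337. All mutants lay below all wild types. The mean was 53900 ± 7013 in mutants and 72586 ± 11092 in wild types (SD, n = 3 each), a log2 difference of -0.43 (SE 0.18, 95% interval -0.83 to -0.03, limma adjusted p = 0.253). Within the depth classes it was -0.36 in the higher and -0.41 in the lower.

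Cldn7, which binds the adhesion protein EpCAM, spread more widely among the mutants than the genotypes differed in their means. Its signal was 65500, 34245 and 53941 in mutants 328, 336 and 342, against 43740, 31753 and 48873 in wild types 330, 331 and 337. The lowest library of each genotype, mutant 336 and wild type 331, was of the lower depth class, but so was wild type 337, the highest of the wild types. The log2 difference was 0.28 (SE 0.25, 95% interval -0.27 to 0.83, limma adjusted p = 0.521), and -0.20 within the lower and 0.44 within the higher depth class. Leaving out mutant 328 gave 0.075, leaving out wild type 331 gave 0.097 and leaving out mutant 336 gave 0.54. The mutant values of Cldn7 spanned 0.94 on the log2 scale, against a median span of 0.34 over all genes.

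Because Cldn4 and Cldn8 act together in the collecting duct, their signal was also set against each other within each library, a comparison chosen after the values were seen and given with no test. The log2 ratio of Cldn4 to Cldn8 was 0.43, 0.58 and 0.61 in mutants 328, 336 and 342, against -0.30, -0.65 and -1.15 in wild types 330, 331 and 337. The ratio was higher in every mutant than in every wild type. That had to be so, because all mutants lay above all wild types for Cldn4 and below them for Cldn8, and it is no separate result. Ratios of Cldn3 to Cldn4 overlapped between the genotypes, at -1.20 ± 0.35 in mutants and -1.09 ± 0.58 in wild types (SD, n = 3 each).

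Collecting duct and ureteric bud genes as a whole gave a reference for the 4 distal claudins. Of 15 listed, 14 were in the table. At an unadjusted p under 0.05, 1 was higher and 2 were lower, against 10.5% and 8.51% of all genes. Of the 14, 0 were past the threshold in limma, and their median log2 difference was 0.00. Their summed signal ran from 516191 to 766182 in mutants and from 582229 to 694720 in wild types. Against the mean log2 signal of these 14 genes, Cldn4 stood at 1.34, 1.17 and 1.46 in mutants 328, 336 and 342 and at 0.51, 0.52 and 0.36 in wild types 330, 331 and 337. Each mutant thus carried more Cldn4 relative to these genes than each wild type did. Cldn8 stood at 0.78 ± 0.17 in mutants and 1.16 ± 0.35 in wild types, with overlap, and Cldn3 at 0.12 ± 0.48 and Cldn7 at 0.67 ± 0.68 in mutants, against -0.62 ± 0.49 and 0.34 ± 0.31 in wild types (SD, n = 3 each). The summed signal of the 10 general epithelium genes differed by 0.17 on the log2 scale, mutant minus wild type, with 0 past the threshold in limma and 1 higher and 1 lower at an unadjusted p under 0.05. That of the distal and connecting tubule list, 5 of 7 genes in the table, differed by -0.61, with 0 past the threshold in limma. In that list 1 was higher and 3 were lower at an unadjusted p under 0.05. For both lists the shares of all genes are those given above. The part of segment size in the claudin values was not tested.

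**Figure D2:**
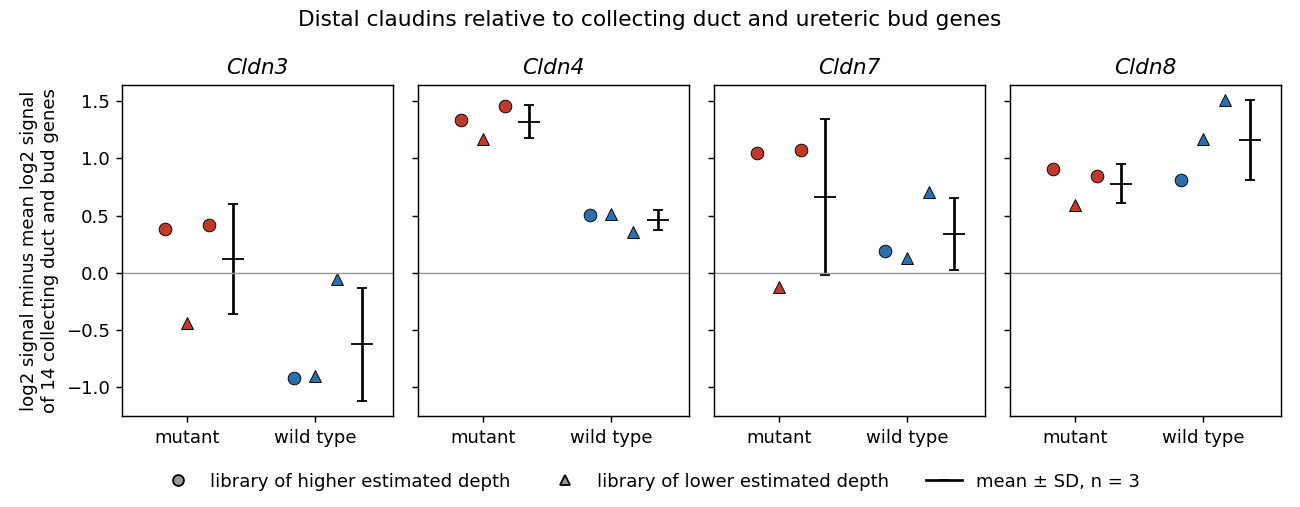
Log2 signal of Cldn3, Cldn4, Cldn7 and Cldn8 minus the mean log2 signal of 14 collecting duct and ureteric bud genes (vertical axis) in the mutant and wild type libraries, with points per library and mean ± SD. Cldn4 lies at 1.17 to 1.46 in mutants and 0.36 to 0.52 in wild types, while the other 3 overlap.

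Cldn2, the channel-forming claudin of the proximal tubule, overlapped between the genotypes. Its signal was 161378, 137513 and 172217 in mutants 328, 336 and 342, against 129760, 154594 and 145990 in wild types 330, 331 and 337. The highest value was in mutant 342 and the lowest in wild type 330. The log2 difference was 0.13 (SE 0.16, 95% interval -0.23 to 0.48, limma adjusted p = 0.654), and 0.36 and -0.13 within the higher and lower depth class. It was 0.058 with either mutant 342 or wild type 330 left out, and 0.22 with mutant 336 left out. At an unadjusted p under 0.05, 4 of 10 listed proximal tubule genes were higher and 0 lower, against 10.5% and 8.51% of all genes. The 10 listed genes had a median log2 difference of 0.39, with 0 past the threshold in limma. Against the mean log2 signal of those genes, Cldn2 stood at 0.41 ± 0.22 in mutants and 0.80 ± 0.34 in wild types (SD, n = 3 each), again with overlap.

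Cldn1, of the parietal cells, was the steadiest of the 8. Its signal was 62406, 60565 and 58544 in mutants 328, 336 and 342, against 51355, 55012 and 54850 in wild types 330, 331 and 337. Every mutant exceeded every wild type by a small margin, and the coefficient of variation was 3.19% in mutants and 3.84% in wild types. The log2 difference was 0.17 (SE 0.16, 95% interval -0.17 to 0.51, limma adjusted p = 0.525). The authors' deposited table gives Cldn1 a p of 0.0143 by an equal-variance test within the gene alone, whereas limma weighs the spread of all genes of like level.

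Cldn5, of the endothelium, was also higher in each mutant than in each wild type. Its signal was 103688, 105487 and 113241 in mutants 328, 336 and 342, against 94562, 91334 and 76808 in wild types 330, 331 and 337. The log2 difference was 0.30 (SE 0.16, 95% interval -0.05 to 0.65, limma adjusted p = 0.307). At an unadjusted p under 0.05, 2 of 10 listed endothelial genes were higher and 1 lower, against 10.5% and 8.51% of all genes. Of the 10, 0 passed in limma and the median log2 difference was 0.01. Their summed signal was 801261 to 858839 in mutants and 735965 to 781282 in wild types, and the part of endothelial content in the Cldn5 values was not tested. Relative to the mean log2 signal of those genes Cldn5 stood at 0.55 ± 0.12 in mutants and 0.33 ± 0.17 in wild types (SD, n = 3 each), with overlap. Podocytes, which also carry Cldn5, had 7 of 7 listed genes in the table with a median log2 difference of 0.19, 0 past the threshold in limma and 1 higher at an unadjusted p under 0.05.

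Cldn6, of immature epithelia, spread widely among the wild types. Its signal was 96264, 80441 and 88420 in mutants 328, 336 and 342, against 98448, 58927 and 75245 in wild types 330, 331 and 337. Wild type 330 was above every mutant, and wild types 331 and 337 were both below every one. The log2 difference was 0.22 (SE 0.20, 95% interval -0.22 to 0.66, limma adjusted p = 0.531), and it was 0.40 without wild type 330 (limma adjusted p = 0.0932) and 0.034 without wild type 331. In the fit without wild type 330, 3095 of the 11578 genes passed, and Cldn6 did not. The early nephron list, 8 of 8 in the table, had a median log2 difference of 0.04, with 0 past the threshold in limma. In that list 1 was higher at an unadjusted p under 0.05, against 10.5% of all genes. The 8 nephron progenitor genes had a median of -0.20, with 1 lower past the threshold, Cited1, which marks the least differentiated of them, at -1.70 (SE 0.27, limma adjusted p = 0.024). That call was lost when any 1 mutant or wild type 331 was left out.

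**Figure D3:**
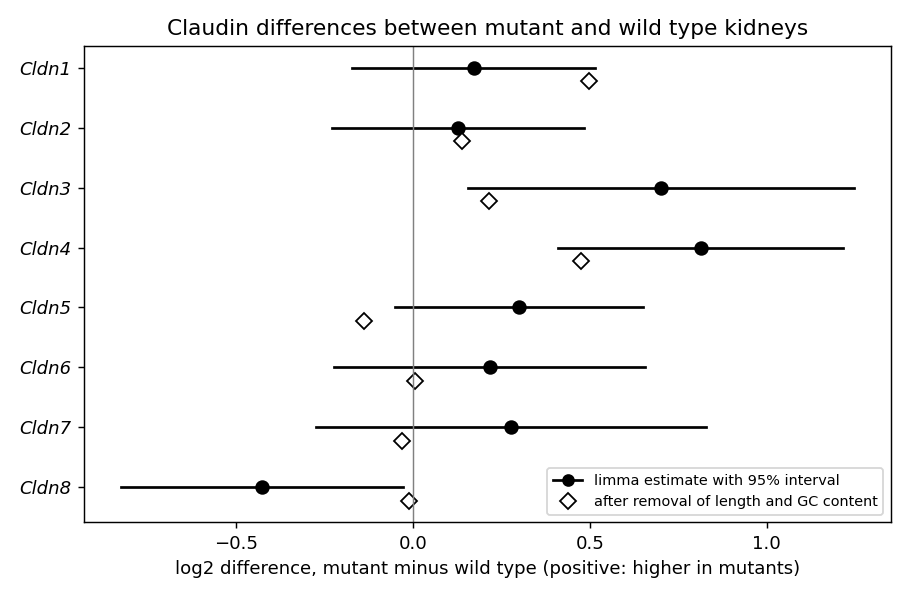
Log2 difference, mutant minus wild type, for each claudin (horizontal axis), with filled circles and lines for the limma estimate and its 95% interval over 3 mutant and 3 wild type libraries, and open diamonds for the estimate after removal of transcript length and GC content. Cldn4 is at 0.81 and 0.47, and Cldn8 at -0.43 and -0.011.

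The differences moved with the base composition of the transcripts, over all genes and among the claudins. Among all genes with an annotated transcript, the median log2 difference was -0.38 in the quintile of lowest GC content (31.2% to 44.7%), then -0.15, 0.02 and 0.21, and 0.40 in the quintile of highest GC content (56.1% to 72.9%). Wild types 331 and 337 stood apart from the other 4 libraries, with median deviations from the gene mean of 0.38 and 0.36 in the lowest quintile and -0.37 and -0.35 in the highest. Wild type 330, at -0.16 and 0.14, lay with the mutants. Cldn8 is the poorest in GC of the 8, at 40.6%, and Cldn3, Cldn5, Cldn7 and Cldn4 are the richest, at 62.8%, 60.5%, 57.0% and 56.8%.

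After length and GC content were removed per library, an adjustment chosen after the data were seen, the order of the 8 was different. Cldn8 was at -0.011 (SE 0.19), so its lower signal was not seen in that fit. Cldn4 was at 0.47 (SE 0.13, limma adjusted p = 0.234, unadjusted 0.00477), and Cldn3 was at 0.21 (SE 0.25). Cldn5 turned to -0.14 (SE 0.16) and Cldn7 to -0.030 (SE 0.21), and Cldn6 was at 0.0064 (SE 0.13). Cldn1, whose transcript has 42.3% GC, was at 0.50 (SE 0.14, limma adjusted p = 0.239, unadjusted 0.00511) in place of 0.17, and Cldn2, with 48.8% GC, at 0.14 (SE 0.13). The log2 ratio of Cldn4 to Cldn8 was then -0.14, 0.32 and 0.31 in mutants 328, 336 and 342, against -0.61, 0.07 and -0.43 in wild types 330, 331 and 337, and the groups overlapped. Relative to the collecting duct and ureteric bud genes adjusted in the same way, Cldn4 stood at 1.25 ± 0.09 in mutants and 0.54 ± 0.14 in wild types (SD, n = 3 each), still without overlap. That difference was 0.71, against 0.47 for Cldn4 itself, so part of it lay in reference genes that were lower in mutants after the adjustment. Without the adjustment these values were 0.86 and 0.81, and the 14 reference genes had a median log2 difference of 0.00. How many of all genes separate the genotypes against this reference was not counted, with or without the adjustment.

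**Figure D4:**
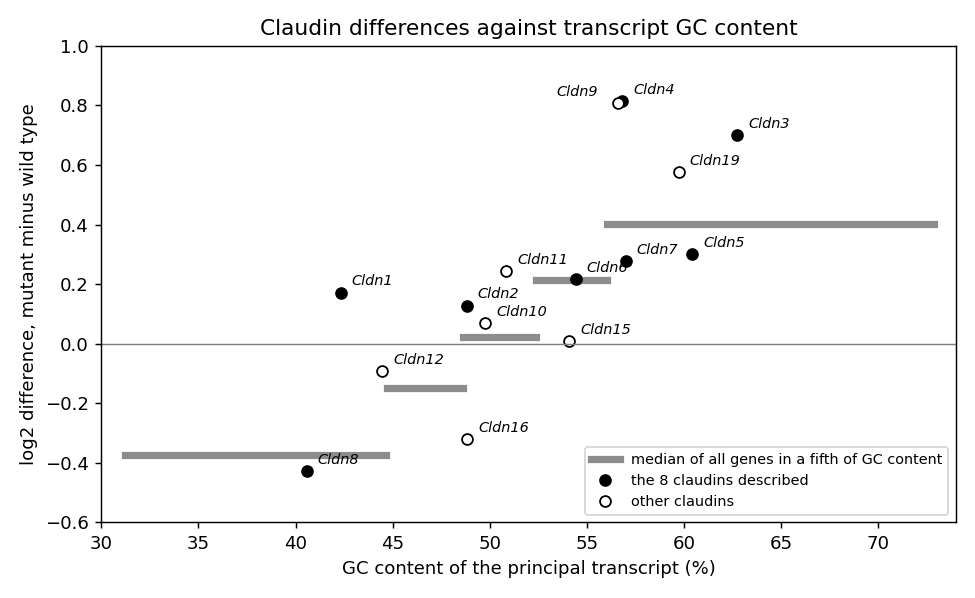
Log2 difference, mutant minus wild type (vertical axis), against GC content of the principal transcript in percent (horizontal axis) for 15 claudins, filled for the 8 described, with grey bars at the median of all genes in each quintile of GC content. Cldn8 lies near the bar of its quintile at -0.38, whereas Cldn4 and Cldn3 lie above theirs at 0.40 and Cldn1 above its bar at -0.38.

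Per kilobase of transcript, Cldn5 was the most abundant, with 75898 ± 3585 signal per kilobase in mutants and 61842 ± 6679 in wild types (SD, n = 3 each). Cldn6 followed with 54485 ± 4878 in mutants and 47805 ± 12244 in wild types, and Cldn2 with 51589 ± 5833 in mutants and 47125 ± 4143 in wild types. Cldn5 exceeded Cldn6 in 6 of 6 libraries, though their wild type ranges overlapped, and its wild type range lay above that of Cldn2. The order of Cldn6 and Cldn2 was not resolved. In wild types Cldn2 lay above Cldn7 without overlap, whereas the range of Cldn6, 36330 to 60695, just met that of Cldn7, 23785 to 36609. Cldn7 had 38374 ± 11838 in mutants and 31053 ± 6581 in wild types, Cldn8 22878 ± 2977 in mutants and 30809 ± 4708 in wild types, and Cldn4 43025 ± 3802 in mutants and 24697 ± 4700 in wild types. Cldn3 with 27319 ± 5493 in mutants and 17147 ± 5417 in wild types, and Cldn1 with 18634 ± 595 in mutants and 16550 ± 636 in wild types, were the lowest. Neighbours from Cldn7 to Cldn1 overlapped in wild types. Cldn4 was thus 6th of the 8 by the wild type means, but by the mutant means it stood above Cldn7, whose range it overlapped, and above Cldn8, whose range it did not. With the union of exons as the length, Cldn2 and Cldn6 changed places in wild types, as did Cldn7 and Cldn8.

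**Figure D5:**
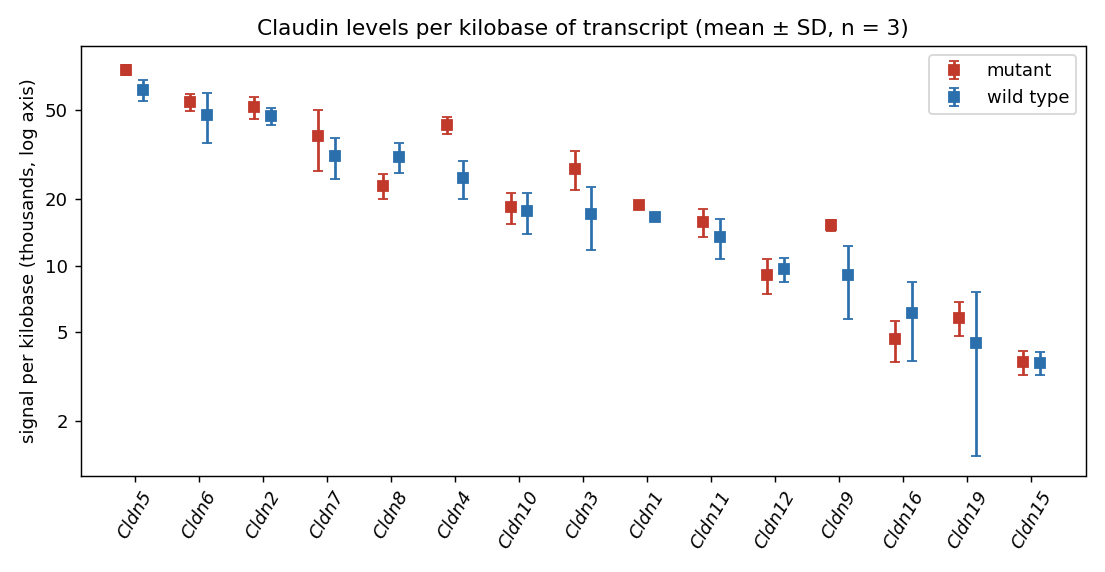
Signal per kilobase of the principal transcript (vertical log axis, in units of 1000) for 15 claudins ordered by the wild type mean, with mutants left of wild types and bars for mean ± SD over 3 libraries each. By wild type means Cldn5, Cldn6 and Cldn2 come first, with the range of Cldn6 overlapping that of Cldn7, and Cldn16, Cldn19 and Cldn15 the bottom.

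Of 24 other claudins listed, 8 were in the table, with 0 past the threshold in limma and a median log2 difference of 0.04. Cldn9 alone had an unadjusted p under 0.05, as did 19.0% of all genes. Its signal was 20702, 23235 and 21929 in mutants 328, 336 and 342, against 18396, 11200 and 9535 in wild types 330, 331 and 337, a difference of 0.81 on the log2 scale (SE 0.25, limma adjusted p = 0.231). It passed without wild type 330, at 1.09 (limma adjusted p = 0.00507), in a fit where 3095 of the 11578 genes passed. The Cldn9 difference was 0.21 within the higher and 1.17 within the lower depth class, where mutant 336 is the lone mutant, and 0.51 once length and GC content were taken out. Cldn9 ends 137 bases from the end of Cldn6 on chromosome 17, the genes facing each other, and no stretch of 50 bases of the principal transcript of Cldn9, Cldn6 or any other of the 8 occurred in a transcript of another gene.

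The claudins of the thick ascending limb, where Cldn16 and Cldn19 form the pathway for magnesium and calcium between cells and Cldn10 that for sodium, lay at -0.32 (SE 0.35), 0.58 (SE 0.46) and 0.07 (SE 0.21) on the log2 scale. Cldn19 has 4.8% of its stretches of 50 bases in the antisense gene Gm12927, so its value is uncertain. Cldn11 was at 0.24 (SE 0.21), Cldn12 at -0.09 (SE 0.19) and Cldn15 at 0.01 (SE 0.27). The thick ascending limb list, 8 of 8 in the table and these 3 claudins among them, had a summed signal of 304956 to 383268 in mutants and 467171 to 527875 in wild types, every mutant below every wild type and a log2 difference of -0.51. Of the 8, 0 were higher and 2 lower at an unadjusted p under 0.05, against 10.5% and 8.51% of all genes. The median log2 difference of the 8 was -0.033. Kcnj1, the potassium channel ROMK, passed over all genes in limma, lower at -1.24 (SE 0.17, limma adjusted p = 0.0162), a call lost when any 1 mutant or wild type 331 was left out, and Slc12a1, the sodium, potassium and chloride cotransporter, was at -0.86 (SE 0.18, limma adjusted p = 0.0955). The part of this segment in the claudin values was not tested. A row named Cldn25, a name that RefSeq lists as a synonym of more than 1 gene, was at -0.11 (SE 0.17).

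Other proteins of the tight junction were all in the table, 29 of 29. Of these, 0 passed in limma, and the median log2 difference was 0.00. At an unadjusted p under 0.05, 0 were higher and 1 was lower, against 10.5% and 8.51% of all genes. The lower 1 was Amot, an angiomotin that links the junction to the Hippo pathway, at -0.52 (SE 0.20, limma adjusted p = 0.243). Tjp1, the scaffold protein ZO-1, with the highest signal of these before any correction for length, was at -0.27 (SE 0.16, limma adjusted p = 0.352).

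Of 10 further proteins that bind, cleave or regulate claudins and are reported here, all in the table, 0 passed over all genes in limma. At an unadjusted p under 0.05, 2 were higher and 1 lower, against 10.5% and 8.51% of all genes. Prss8, the membrane protease prostasin, was at 0.65 (SE 0.28), St14, the protease matriptase, at 0.48 (SE 0.21), and Cul3, of the ubiquitin ligase that acts on WNK kinases, at -0.40 (SE 0.18), each with a limma adjusted p of 0.256 to 0.262. Wnk1, with the highest signal before any correction for length, was at -0.33 (SE 0.18) and Epcam at 0.06 (SE 0.20).

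Profiles over the 6 libraries were compared by the root mean square difference of centred log2 signal. The genes most like Cldn4 were Wnt5b (0.07) and Sox13 (0.07), and those most like Cldn8 were Smpdl3b (0.039) and Pou3f3 (0.08). For Cldn3 they were Slc51a (0.12) and Map3k15 (0.13), and for Cldn7 Sytl4 (0.08) and Prr15 (0.09). Cldn1 was nearest to Fam214b (0.036) and Map4 (0.05), Cldn2 to Map7 (0.05) and Med27 (0.06), Cldn5 to Prkd2 (0.045) and Ap1m1 (0.05), and Cldn6 to Gm2002 (0.036) and Josd2 (0.048). No member had another member as 1 of its 2 nearest genes. The closest pair among the 8 was Cldn1 with Cldn2 (0.12), and the farthest was Cldn4 with Cldn8 (0.67). These distances rest on 6 libraries that differ in depth and GC slope and carry no test.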

How the data were processed

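The groups, 3 mutant and 3 wild type kidneys, follow the labels. Per the labels' protocols, polyadenylated RNA was made into Ion Torrent libraries. The deposited signal is a whole number for each gene, and the authors had brought all libraries to about the same total. The submitters' processing notes name mm10 and bedtools, while the aligner, annotation, filter and scaling are not stated. The authors' deposited table also holds group means, their ratio, log2 values of both, and a p-value for each gene. That p-value matches an equal-variance test of the unlogged signal to 1% in 100% of the table.

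Mutants were compared with wild types in limma 3.58.1 under R 4.3.3, two-sided and with a variance trend, on log2(signal + 1), the scale of all differences given. Benjamini-Hochberg adjustment ran over all 11578 genes, at 0.05, and the script was tested on simulated data. Requiring 1 or more in 3 or more libraries left out 0 genes. Depth is unknown, so counting error has no interval. Depth classes came from the periodicity of values below 60000, split at 0.3. Lengths, GC content and coordinates are those of the GENCODE M21 principal transcript, for 11518 genes, 10951 matched by symbol and 567 by synonym. Length and GC content were removed per library with splines of 5 degrees of freedom. The claudins and gene lists were chosen with earlier results of these data known. Named genes are all claudins in the table, partners and junction genes at an unadjusted p under 0.05 or with the highest signal, marker genes a result turns on, and the 2 genes of most like profile; Epcam and Grhl2 were added after their values were seen. Of the partner genes, 1 is not reported here. The macrophage, stroma, erythroid and muscle lists, in that order, had median log2 differences of 0.85, 0.06, 0.29 and -0.49.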

Additional observations from a re-analysis of the deposited data

How the results depend on the processing

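Of 128 log2 differences of the 8 claudins under an alternative, 121 kept their direction and their side of the threshold. Size was not counted, so Cldn8 at -0.011, Cldn6 at 0.0064 and Cldn3 at 0.21 with length and GC content removed are among those kept. A fit without the variance trend and the minimum mean signal of 10000 leave each estimate as it was, so only the call could change there. Direction turned for Cldn2 (-0.13) and Cldn7 (-0.20) in the lower depth class alone, for Cldn6 (-0.094) in the higher depth class alone, and for Cldn5 (-0.14) and Cldn7 (-0.030) with length and GC content removed, none of which had passed. In the lower depth class alone, where mutant 336 is the lone mutant and was assumed to vary like the others, Cldn4 passed (1.07), as 1 claudin changed and higher, which is no separate evidence. Leaving out 1 library, Cldn4 ran from 0.71 without wild type 337 to 0.96 without wild type 330, where it passed, so 0 or 1 claudins were changed and higher, and the number of changed genes in the table ran from 2 without mutant 328 to 3095 without wild type 330. That number, 33, was 70 in the higher and 704 in the lower depth class alone, each with 1 library of a genotype assumed to vary like the others, 53 with length and GC content removed, and 0 with the authors' p-values adjusted, where 1009 had an unadjusted p under 0.05. Fits that leave out libraries test fewer samples. For the other changes the cause was not tested. A minimum mean signal of 10000 kept all 8 but left out Cldn15, Cldn16 and Cldn19, with Cldn4 at an adjusted p of 0.163 and 25 changed genes, while applying no filter left out no gene either and so tested nothing. No paired analysis was possible because the labels do not state litters and link no mutant to a wild type.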
